A study of Mus musculus with 12 samples.

Results

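The 10 genes described here encode chains of the cell surface receptors through which B and T cells of the mouse spleen read cytokines, namely Il7r, Il2rb, Il2rg, Il4ra, Il6ra, Il6st, Il21r, Il10ra, Ifngr1 and Ifnar1. They were chosen by name, as chains of lymphocyte cytokine receptors, out of 41128 genes in the expression table, and all 10 passed the filter that left 12520 genes for testing. RNA was sequenced from 12 libraries of C57BL/6J mice aged 6 to 8 weeks, and they form 4 groups of 3. Resting, CD43-negative B cells came from females and from males and are numbered 1 to 3 in each sex. Naive T cells carrying CD4 and CD62L came from females and from males and are numbered 4 to 6 in each sex. The T cells were depleted of cells carrying CD8a, CD25 and other lineage proteins with magnetic beads, and a flow cytometer then collected cells high in CD62L, low in CD44 and without CD25. The labels name no transgene and no treatment. Each library is a pool of mice, so every SD and p-value below describes the spread between pools.

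Cytokine receptors of this kind have no enzyme of their own. The signalling chains hold a Janus kinase (JAK) at their inner end, while others, such as the products of Il6ra, Il2ra and Il15ra, mainly bind the cytokine. When a cytokine draws chains together, the kinases phosphorylate the receptor and the STAT factors that then enter the nucleus. Most receptors pair a private chain, which recognises a single cytokine or a few, with a shared chain. The common gamma chain, encoded by Il2rg, serves interleukins 2, 4, 7, 9, 15 and 21, and the chain gp130, encoded by Il6st, serves interleukin 6 and its relatives. The type II receptors for interleukin 10 and the interferons pair chains in a similar way. Interleukin 7 is known for keeping naive T cells alive, and interleukins 4 and 21 for acting on both B and T cells.

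The unit throughout is the adjusted TPM deposited by the authors. It was read from its name as a share of transcripts corrected for gene length and rescaled between libraries, since the adjustment is not described in the sources used here. Comparisons between levels of different genes rest on that reading. A difference is given as B minus T cells on the scale of log2(adjusted TPM + 1), with its SE, and a gene was called where limma gave a Benjamini-Hochberg adjusted p under 0.05 over the 12520 genes. With the pseudocount of 1, fold changes of weakly expressed genes come out too small. Sequencing depth is unknown, and the deposited lower and upper bounds, whose level is not stated, were read as precision. In bulk samples, fewer cells that express a gene and less of its RNA per cell cannot be told apart.

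In the B and T cell marker lists the libraries matched their labelled cell types. The 5 B cell markers, among them Cd79a, Cd79b, Ms4a1 and Pax5, summed to between 2610 and 2972 adjusted TPM in B cells and to at most 5.34 in T cells. The 5 T cell markers (Cd3d, Cd3e, Cd4, Lck and Tcf7) summed to between 1017 and 1194 in T cells and to at most 14.1 in B cells, where Lck alone reached 13.4 and the other 4 were under 1 in every library. Markers of other cells were also present. The monocyte and macrophage list summed to between 8.95 and 13.1 in B cells, mostly from Lyz2, and to at most 4.55 in T cells. The erythroid list summed to between 0.558 and 195.9 in B cells and to between 1.94 and 42.9 in T cells. Cd8b1 lay between 5.25 and 8.11 in T cells, with Cd8a at most 0.256. Their part in the levels of weakly expressed chains was not tested. Libraries of a group correlated across genes with r between 0.985 and 0.992. The 2 T cell libraries numbered 6, one of each sex, stood apart from the other 4 in genes of regulatory or activated T cells and in Il2rb, and results that rest on them are given below with and without them. Over all tested genes the median difference was -0.09 as deposited, 0.01 after median-ratio scaling and 0.26 after bringing each library to a total of 1000000 (below, equal totals), which leaves the direction of a small difference tied to the scaling. A single gene held 37.4% of the total in male T cell library 6 and 32.2% in female B cell library 1, so equal totals also carry the level of that gene.

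To show the control regions of the 2 shared chains, the 250 bases before the transcription start of Il2rg and of Il6st are printed from RefSeq on GRCm38.p6. RefSeq promoters were matched for 8 of the 10 members, and for 5 of these the start was the one GENCODE M21 gives. Capitals mark the motif CCGGAAG, a sequence of the kind that ETS factors bind, which shares its core with the motif AGGAAGT. The Il2rg window is chrX:101268256-101268505 on the minus strand and the Il6st window is chr13:112463820-112464069 on the plus strand.
Il2rg: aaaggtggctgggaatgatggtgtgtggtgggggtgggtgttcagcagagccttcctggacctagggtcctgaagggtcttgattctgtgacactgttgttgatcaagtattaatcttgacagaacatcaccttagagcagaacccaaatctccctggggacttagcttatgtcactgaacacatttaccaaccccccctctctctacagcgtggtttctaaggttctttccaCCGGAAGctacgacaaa
Il6st: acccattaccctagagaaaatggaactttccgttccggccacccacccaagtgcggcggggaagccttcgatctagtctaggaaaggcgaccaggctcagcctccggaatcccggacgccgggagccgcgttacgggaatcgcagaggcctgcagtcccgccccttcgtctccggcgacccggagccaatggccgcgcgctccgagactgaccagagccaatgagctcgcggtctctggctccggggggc

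The motif began 17 bases before the start of Il2rg and had no match in the Il6st window on either strand. Of 32851 promoters of the same length, 6.91% hold CCGGAAG on either strand, 7.69% hold AGGAAGT and 7.02% hold TTCNNNGAA, the pattern read by STAT factors. Among the 5 members with matching starts, CCGGAAG was found in 1 (Il2rg), AGGAAGT in 1 (Il6ra, 174 bases before the start) and TTCNNNGAA in none. The promoters also differed in CpG, the cytosine and guanine pair at which DNA is methylated. The Il6st window holds 26 CpG, and 91.4% of promoters hold that many or fewer, while the Il2rg window holds 3 and the median promoter holds 6. Il21r had 4, Ifngr1 11 and Il6ra 18. The AGGAAGT match is letters in a window and no measured binding.

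Between B and T cells, 8 of the 10 chains were called, with Il10ra higher in B cells and the other 7 in T cells. Over all tested genes 73.0% were called, 31.4% towards B cells and 41.6% towards T cells, so a count of 8 is near the background. The balance of directions moved with the scaling, to 3 called towards B cells and 5 towards T cells under median-ratio scaling (72.2% of all genes called), and to 3 and 4 with equal totals (54.6% called). The B and T cell libraries did not overlap for 7 members, beside 53.9% of all tested genes. With a minimum absolute log2 difference of 1 in the test, 5 members were called (Il7r, Il6st, Il6ra and Il2rb towards T cells, Il10ra towards B cells), beside 16.5% of all genes. Of these, Il7r and Il2rb passed the filter through the T cells alone, so their direction was set by the filter. The members were also chosen with earlier results of these data known, so their share is not an independent comparison with all genes. The median difference of the members was -0.33 and that of all genes -0.09.

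**Figure D1:**
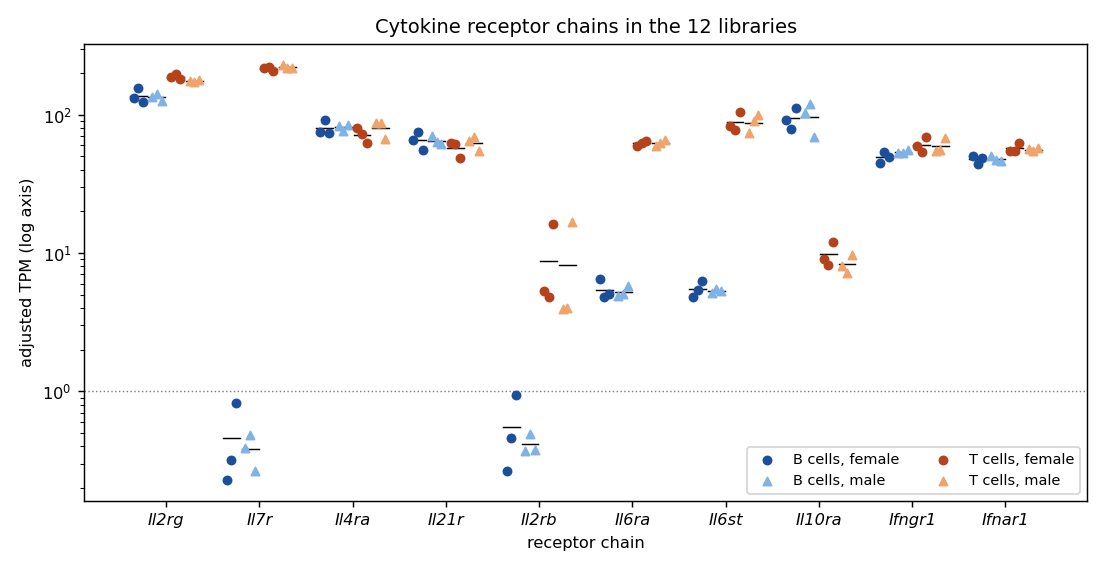
Adjusted TPM of the 10 receptor chains on a log axis in the 12 libraries, with B cells in blue, T cells in red and orange, females as circles and males as triangles, and a short line at the mean of each group of 3. Il7r and Il2rb lie under 1 (dotted line) in all 6 B cell libraries, Il6ra and Il6st lie near 5 in B cells, and Il10ra is the chain that lies higher in B cells without overlap.

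The shared gamma chain was abundant in both cell types. Il2rg (chrX:101264378-101268255, ENSMUSG00000031304.13) ranged from 122.5 to 155.2 in the B cell libraries (median 132.6) and from 171.8 to 197.0 in the T cell libraries (median 178.1). Every T cell library was above every B cell library. The difference was -0.42 (SE 0.06, adjusted p = 6.8e-05 by limma), a 1.34-fold higher mean in T cells. Under median-ratio scaling it was -0.31 (adjusted p = 0.000648 by limma) and still called. With all libraries brought to equal totals it was -0.04 (SE 0.21, adjusted p = 0.876 by limma). Il2rg was the highest of the 10 chains in B cells and second to Il7r in T cells, and in both cell types its libraries did not overlap those of the chain ranked next to it below.

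Among the members that pair with Il2rg, Il7r and Il2rb differed far more, while Il4ra and Il21r overlapped between the cell types. Il7r, the interleukin 7 receptor chain (chr15:9505788-9530176, ENSMUSG00000003882.4), ranged from 206.4 to 229.0 in T cells (median 218.0) and from 0.229 to 0.828 in B cells (median 0.354). The lowest T cell library was 249.4 times the highest B cell library. The difference was -7.28 (SE 0.09, adjusted p = 7.3e-16 by limma). T cell levels were close to each other, with a coefficient of variation of 3.34%, and Il7r was the most abundant of the 10 chains in every T cell library. In B cells the precision was low, with upper bounds 1.61 to 5.26 times the lower bounds, and Il7r passed the filter through the T cells alone. The 3 genes whose levels over the 12 libraries followed Il7r most closely were Tcf7 (Pearson r = 0.9997), Sall2 (0.9997) and Spsb1 (0.9996). Over these 6 B and 6 T cell libraries 573 genes had r above 0.99 with Il7r, so many genes share this pattern.

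Il4ra and Il21r, the private chains for interleukins 4 and 21, overlapped between the cell types. Il4ra (chr7:125552120-125579474, ENSMUSG00000030748.8) had means of 80.3 ± 6.72 (B cells) and 75.8 ± 10.6 (T cells, SD, n = 6 each). Il21r (chr7:125603429-125633570, ENSMUSG00000030745.8) had 64.9 ± 6.98 (SD, n = 6) and 59.9 ± 7.31 (SD, n = 6). B and T cell libraries thus lay in the same range for both genes. The difference was 0.09 for Il4ra (95% interval -0.10 to 0.28, adjusted p = 0.374 by limma) and 0.12 for Il21r (95% interval -0.08 to 0.32, adjusted p = 0.27 by limma). Neither was called under the authors' scaling. Both were called as higher in B cells under median-ratio scaling, at 0.20 and 0.23 (adjusted p = 0.044 and 0.0336), and with all libraries brought to equal totals, at 0.47 and 0.49 (adjusted p = 0.037 and 0.0257), and Il4ra was -0.02 without both T cell libraries numbered 6.

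The 2 genes are neighbours on chromosome 7, on the same strand, with 23954 bases and no protein-coding gene between them. Their ratio within a library varied little, with Il4ra between 1.15 and 1.37 times Il21r in B cells and between 1.18 and 1.34 times in T cells. Over the 12 libraries Il4ra was the second gene most like Il21r (Pearson r = 0.8831), after Xxylt1 (0.8925) and before Vps72 (0.8764), and no gene had r above 0.99. These r values are descriptions over libraries that share their scaling.

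Il2rb, the chain shared by the receptors for interleukins 2 and 15 (chr15:78479256-78495271, ENSMUSG00000068227.3), was low. The 6 B cell libraries lay between 0.268 and 0.94. In T cells it was 5.27, 4.84 and 16.07 in female libraries 4, 5 and 6 and 3.92, 4.02 and 16.76 in male libraries 4, 5 and 6. All T cell libraries were above all B cell libraries, and the libraries numbered 6 of both sexes were far above the other 4. The difference was -2.46 (SE 0.33, adjusted p = 2.3e-05 by limma), and -1.90 (SE 0.11, adjusted p = 9.99e-08) without both libraries numbered 6. Like Il7r, Il2rb passed the filter through the T cells alone, and its upper bounds in B cells were 1.52 to 3.54 times the lower ones.

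The same libraries numbered 6 were above the other 4 T cell libraries in genes of regulatory or activated T cells, although the sort was set to leave out CD25, the product of Il2ra. Il2ra was 4.999 in female library 6 and 4.12 in male library 6, and between 0.158 and 0.340 in the others. Ikzf2, a transcription factor of regulatory T cells, was 13.4 and 11.25 beside 1.07 to 2.07. Ctla4, an inhibitory receptor, was 13.2 and 11.4 beside 1.57 to 2.15, and Foxp3, the factor that defines regulatory T cells, was 2.565 and 1.82 beside 0.440 to 0.735. Cd44, the fifth gene of this list, was 9.86 and 5.89 beside 7.36 to 10.7 and did not separate them. The list as a whole summed to 44.1 and 34.5 in the libraries numbered 6, to between 11.2 and 16.0 in the other T cell libraries and to between 21.6 and 26.1 in B cells, there mostly from Cd44. Other marker lists also summed higher in the libraries numbered 6. The NK cell list summed to 3.07 and 3.81 beside 1.54 to 2.07. Most of that sum was Eomes, at 2.389 and 2.882 beside 1.064 to 1.5. Gzmb was also above, at 0.05144 and 0.3635 beside at most 0.03623, while Ncr1, Klrb1c and Gzma did not separate these libraries. The list of monocytes and macrophages summed to 4.55 and 2.23 beside 1.06 to 1.53, and the B cell list to 5.34 and 2.60 beside 0.900 to 2.00, while the T cell list was lower, at 1017 to 1052 beside 1132 to 1194. Their part in the Il2rb result was not tested.

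**Figure D2:**
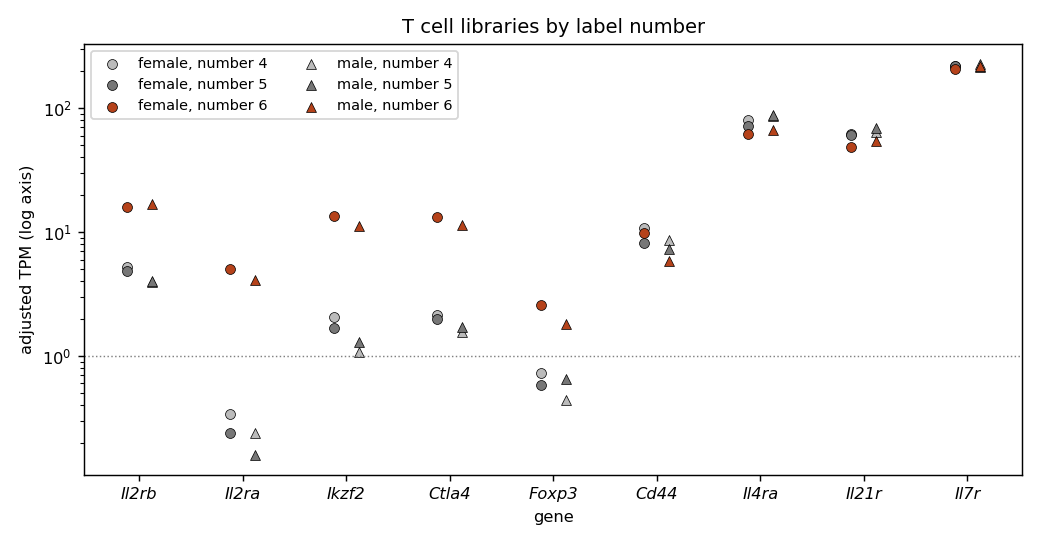
Adjusted TPM on a log axis of Il2rb, of 5 genes of regulatory or activated T cells and of 3 other private chains in the 6 T cell libraries, with circles for females, triangles for males and red for the libraries numbered 6. The red points lie above the grey ones for Il2rb, Il2ra, Ikzf2, Ctla4 and Foxp3, below them for Il4ra and Il21r, and for Cd44 the female one lies among the grey points and the male one below them.

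Other members also differed in these libraries. Both libraries numbered 6 lay above the other 4 T cell libraries for 6 members (Il2rb, Il6ra, Il6st, Il10ra, Ifngr1 and Ifnar1) and below them for 2 (Il4ra and Il21r). Over all tested genes both lay above for 17.0% and below for 18.6%. Il6st was 104.2 and 98.9 in them beside 74.2 to 89.5, and Ifngr1 was 68.7 and 67.3 beside 53.5 to 59.2. Il21r was 48.2 and 54.8 beside 61.2 to 68.6. Of 8 inhibitors of the SOCS family, 5 lay above in both libraries numbered 6 (Cish, Socs2, Socs4, Socs5 and Socs7) and Socs1, Socs3 and Socs6 did not separate them. Cish, a feedback inhibitor that interleukin 2 is known to induce, was 2.88 and 3.65 beside 1.42 to 1.72, and Socs2 was 0.865 and 0.669 beside at most 0.00051. Without both libraries the difference between B and T cells was -3.67 for Il6st, -3.29 for Il6ra and 3.37 for Il10ra, each with the direction and call it has with them.

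Set against the shared gamma chain, the private chains stood in different proportions in the 2 cell types. Ratios were taken within each library, which leaves the scaling between libraries out, and 8 pairs of partner chains were tested by a two-sided exact permutation test over 6 and 6 libraries, whose smallest possible p is 0.00216. The ratio of Il7r to Il2rg had a median of 1.20 in T cells and 0.00252 in B cells. The ratio of Il2rb to Il2rg had a median of 0.0264 in T cells and 0.00296 in B cells. The opposite direction was seen for Il4ra, where B cells had a median of 0.593 and T cells one of 0.402, and for Il21r, with 0.483 and 0.322. None of these 4 ratios overlapped between the cell types, and each had the smallest possible exact p of 0.00216, or 0.00289 after Benjamini-Hochberg adjustment over the 8 pairs. Il7r and Il2rb passed the filter through the T cells alone. With Il2rg abundant in both cell types, the direction of their ratios was set by the filter, and their p-values add no separate support. All 4 ratios share Il2rg, so they are not independent of each other. Taken singly, 53.9% of all tested genes did not overlap either. The share among other pairs of genes was not computed, so separation is not shown to be particular to partner chains. Without both T cell libraries numbered 6 the log2 difference, B minus T cells, moved from -3.53 to -2.89 for Il2rb, from 0.52 to 0.41 for Il4ra and from 0.54 to 0.45 for Il21r.

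**Figure D3:**
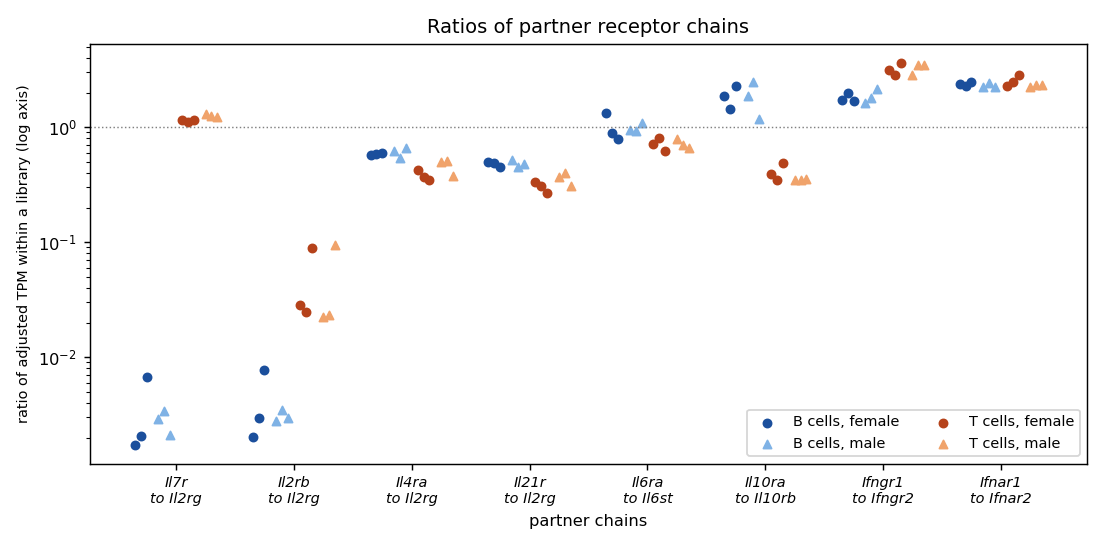
Ratio of the adjusted TPM of partner chains within a library on a log axis, for 8 pairs in the 12 libraries, with B cells in blue, T cells in red and orange, females as circles and males as triangles. The cell types separate for 6 pairs and overlap for Il6ra to Il6st and for Ifnar1 to Ifnar2, whose medians are 2.31 in both.

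The summed level of the private gamma chain partners (Il7r, Il2rb, Il4ra, Il21r and the interleukin 9 receptor chain Il9r, a sum chosen after the values were seen) was 1.17 to 1.46 times Il2rg in B cells and 1.82 to 2.20 times in T cells. Its makeup differed. In T cells Il7r made up 57.5% to 62.0% of the sum and Il4ra 18.6% to 23.2%. In B cells Il4ra made up 44.2% to 47.3%, Il21r 33.0% to 41.3% and Il9r 11.1% to 21.6%, while Il7r and Il2rb were each under 1%. Il9r had 28.9 ± 8.11 (SD, n = 6) in B cells, while no T cell library exceeded 0.114, a difference of 4.83 (SE 0.16, adjusted p = 1.6e-11 by limma). It passed the filter through the B cells alone, so its direction was set by the filter. Il15ra, which joins Il2rb in the interleukin 15 receptor, had 2.03 in B cells and 2.24 in T cells (adjusted p = 0.348 by limma), and Il2ra was not called (adjusted p = 0.663 by limma), with the T cell libraries numbered 6 above all B cell libraries and the other 4 below them. Crlf2, which pairs with Il7r in the receptor for thymic stromal lymphopoietin, had 20.3 in B cells, had 13.8 in T cells and was called (difference 0.53, SE 0.13, adjusted p = 0.00267 by limma).

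**Figure D4:**
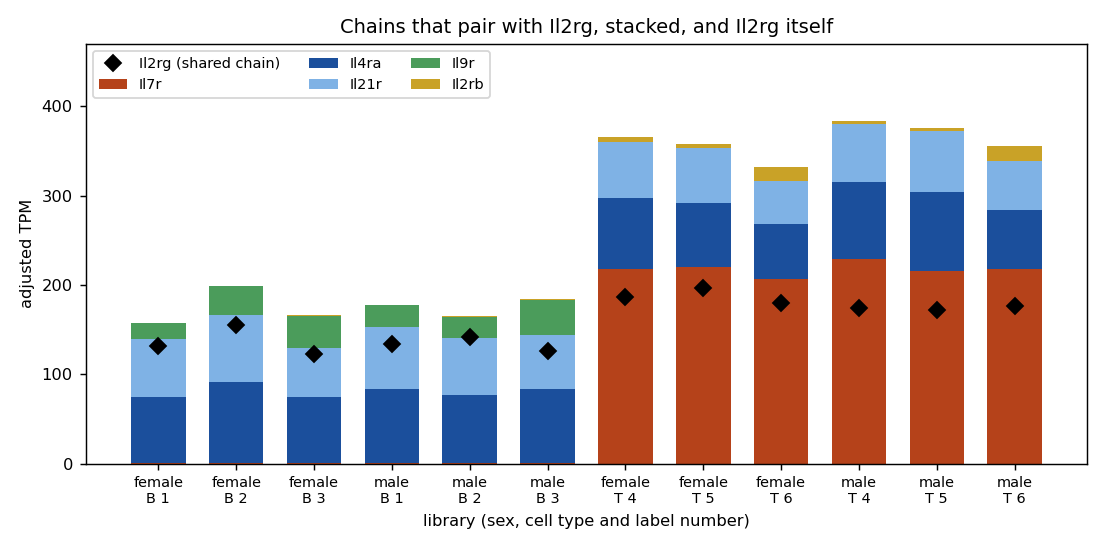
Adjusted TPM of 5 private chains stacked as bars, and of Il2rg as black diamonds, in each of the 12 libraries. The bars reach 158 to 199 in B cells, made of Il4ra, Il21r and Il9r, and 333 to 384 in T cells, where Il7r is the lowest and tallest block.

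Both chains of the interleukin 6 receptor were higher in T cells. Il6ra, which binds the cytokine (chr3:89864059-89913196, ENSMUSG00000027947.7), ranged from 58.9 to 65.2 in T cells (median 62.4) and from 4.82 to 6.44 in B cells (median 5.05). Il6st, which encodes the signalling chain gp130 (chr13:112464070-112510086, ENSMUSG00000021756.7), ranged from 74.2 to 104.2 in T cells (median 85.8) and from 4.84 to 6.31 in B cells (median 5.38). Neither gene overlapped between the cell types. The differences were -3.32 (SE 0.07, adjusted p = 1.1e-13) for Il6ra and -3.78 (SE 0.09, adjusted p = 5.4e-13) for Il6st by limma, which are 11.6-fold and 16.1-fold higher means in T cells.

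Within each cell type the 2 chains were of the same order. The ratio of Il6ra to Il6st had medians of 0.934 (B cells) and 0.708 (T cells), which overlapped and differed by 0.46 on the log2 scale (exact permutation p = 0.00649, adjusted 0.00742). With the deposited bounds set to bring the groups together, the difference was 0.07 (exact permutation p = 0.548). Chains that join gp130 in other receptors differed among themselves in direction. Lifr, which pairs with it in the receptor for leukaemia inhibitory factor, had means of 3.58 ± 0.734 (B cells) and 0.0346 ± 0.023 (T cells, SD, n = 6 each) and a difference of 2.13 (adjusted p = 5.9e-10 by limma). Lifr passed the filter through the B cells alone, so its direction was set by the filter. Il27ra, which pairs with it in the interleukin 27 receptor, had means of 22.9 ± 2.46 (B cells) and 82.8 ± 6.59 (T cells, SD, n = 6 each) and a difference of -1.81 (SE 0.08, adjusted p = 1.7e-10 by limma). Il11ra1 was not called (2.49 and 2.94, adjusted p = 0.113 by limma). The 3 genes most like Il6st over the 12 libraries were Atp11a (Pearson r = 0.9989), Hnrnpll (0.9988) and Rcbtb1 (0.9988), among 445 genes with r above 0.99.

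Il10ra, the chain that binds interleukin 10 (chr9:45253837-45269149, ENSMUSG00000032089.11), was the member called as higher in B cells under the authors' scaling. It ranged from 68.3 to 118.7 in B cells (median 97.0) and from 7.21 to 12.05 in T cells (median 8.61). Every B cell library was at least 5.67 times every T cell library. The difference was 3.25 (SE 0.14, adjusted p = 2.1e-10 by limma), a 10.5-fold higher mean in B cells. Its B cell levels spread more than those of the other abundant chains, with a coefficient of variation of 20.2% beside 5.03% for Ifnar1 and 8.75% for Il2rg. Il10rb, the second chain of this receptor, was also higher in B cells, with means of 52.1 ± 3.99 and 23.7 ± 2.03 (SD, n = 6 each) and a difference of 1.10 (SE 0.07, adjusted p = 1.1e-08 by limma).

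The change was larger in Il10ra than in its partner. The ratio of Il10ra to Il10rb had medians of 1.86 (B cells) and 0.352 (T cells), with no overlap (exact permutation p = 0.00216, the smallest possible, adjusted 0.00289), so the private chain was the more abundant of the pair in all 6 B cell libraries and the less abundant in all 6 T cell libraries. Inppl1 (Pearson r = 0.9971), Alpk2 (0.9966) and Rufy3 (0.9962) were the genes most like Il10ra over the 12 libraries, among 166 genes with r above 0.99.

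The interferon receptor chains among the members differed little. Ifngr1, which binds interferon gamma (chr10:19591949-19610229, ENSMUSG00000020009.7), had means of 51.6 ± 3.91 (B cells) and 59.9 ± 6.601 (T cells, SD, n = 6 each). Ifnar1, a chain of the receptor for type I interferons (chr16:91485238-91507441, ENSMUSG00000022967.7), had 47.7 ± 2.40 (SD, n = 6) and 56.5 ± 3.14 (SD, n = 6). The libraries overlapped for Ifngr1 and not for Ifnar1. The differences were -0.21 (SE 0.07, adjusted p = 0.0239) and -0.24 (SE 0.05, adjusted p = 0.00159) by limma, and both turned with all libraries brought to equal totals, to 0.17 and 0.14. Under median-ratio scaling they were -0.10 and -0.13 and neither was called (adjusted p = 0.262 and 0.0688), and Ifngr1 was -0.12 (adjusted p = 0.106) without both T cell libraries numbered 6.

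The ratio of a chain to its partner in the same library does not depend on the scaling. Ifngr2, the second interferon gamma chain, had means of 28.4 ± 2.63 (B cells) and 18.6 ± 1.21 (T cells, SD, n = 6 each) and a difference of 0.58 (SE 0.07, adjusted p = 4.1e-06 by limma). The ratio of Ifngr1 to Ifngr2 had medians of 1.76 (B cells) and 3.29 (T cells), without overlap (exact permutation p = 0.00216, the smallest possible, adjusted 0.00289). The ratio of Ifnar1 to Ifnar2, the 2 chains of the type I receptor, had a median of 2.31 in both cell types. It ranged from 2.22 to 2.48 in B cells and from 2.24 to 2.85 in T cells, and the mean difference was -0.05 on the log2 scale (exact permutation p = 0.543). On chromosome 16 the genes Ifnar2, Il10rb, Ifnar1 and Ifngr2 stand in a row on the plus strand, 574, 59403 and 39630 bases apart with no protein-coding gene between them. Within this row Il10rb and Ifngr2 were higher in B cells under every scaling, while Ifnar2 and Ifnar1 were slightly lower in B cells under the authors' scaling and were 0.18 and 0.14 with all libraries brought to equal totals.

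The members form separate tiers of abundance. In B cells, Il2rg at 135.1, Il10ra at 95.1, Il4ra at 80.3, Il21r at 64.9, Ifngr1 at 51.6 and Ifnar1 at 47.7 stood above Il6st at 5.43 and Il6ra at 5.34, and Il2rb at 0.484 and Il7r at 0.419 came last. The ranges of Il10ra, Il4ra, Il21r, Ifngr1 and Ifnar1 each overlapped that of the next, as did those within each of the lower pairs, while the steps from Ifnar1 to Il6st and from Il6ra to Il2rb did not overlap. In T cells, Il7r at 217.9 and Il2rg at 181.1 stood without overlap above a middle tier of Il6st, Il4ra, Il6ra, Il21r, Ifngr1 and Ifnar1 between 56.5 and 87.6, where each overlapped the next. Il10ra at 9.03 and Il2rb at 8.48 formed the lowest tier in T cells and overlapped each other through the libraries numbered 6. In the other 4 T cell libraries Il10ra lay between 7.21 and 8.997 and Il2rb between 3.92 and 5.27, without overlap. The 10 chains summed to between 452.7 and 511.8 in B cells and to between 810.4 and 830.6 in T cells.

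**Figure D5:**
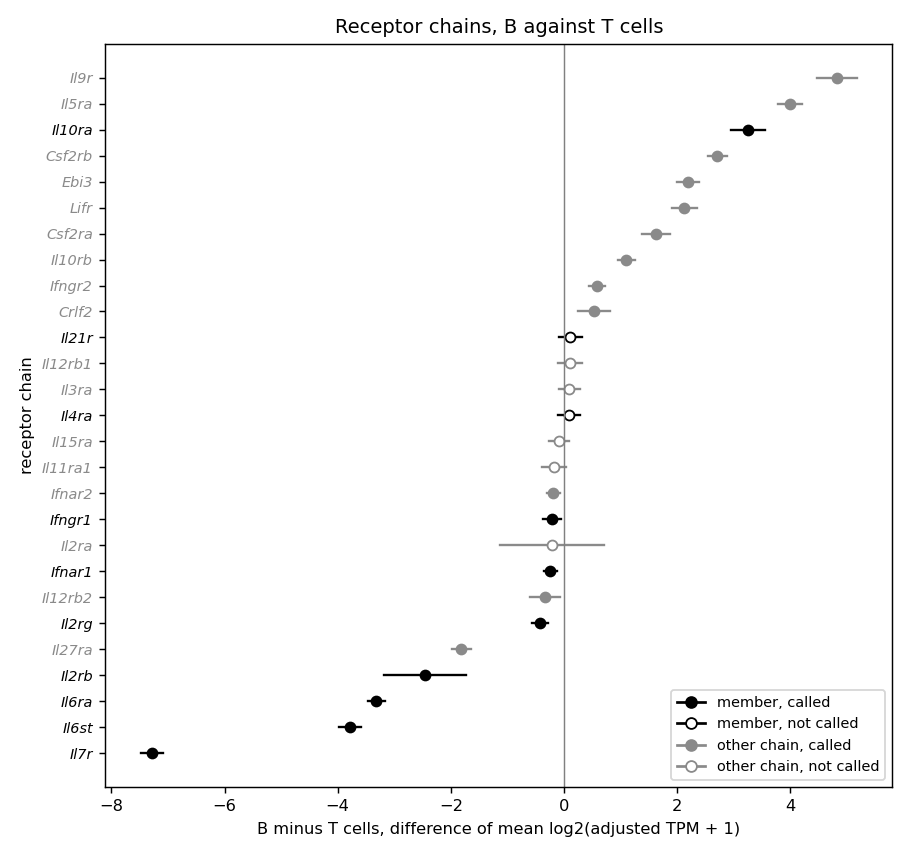
Difference of mean log2(adjusted TPM + 1), B minus T cells, with its 95% interval, for the 10 members in black and for the 17 other genes of the receptor list tested in grey, filled where called. Members stretch from Il7r at -7.28 to Il10ra at 3.25, and most of the other genes called lie to the right of 0.

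Of 35 other genes listed for these receptor families, 17 passed the filter and 12 were called, beside 73.0% of all genes, 9 towards B cells and 3 towards T cells. Of the 9, 6 (Il9r, Il5ra, Csf2rb, Lifr, Ebi3 and Csf2ra) passed the filter through the B cells alone, so that their direction was set by the filter. Among the chains that passed in both cell types, 3 were called towards each. The 3 largest towards B cells were Il9r, Il5ra (15.4 ± 2.71 (SD, n = 6) and at most 0.0226 in T cells, difference 3.99) and Csf2rb (5.86 ± 0.703 (SD, n = 6) and at most 0.118, difference 2.72), chains of the receptors for interleukins 9 and 5 and for granulocyte-macrophage colony-stimulating factor. Csf2rb has a close copy, Csf2rb2, with which it could share reads. The 3 higher in T cells were Il27ra, Il12rb2 (-0.34, adjusted p = 0.023 by limma) and Ifnar2 (-0.19, adjusted p = 0.00538 by limma), and the last 2 were not called with all libraries brought to equal totals (-0.10 and 0.18). The other 6 called genes, Ebi3, Lifr, Csf2ra, Il10rb, Ifngr2 and Crlf2, were higher in B cells under all 3 scalings. Of these, Ebi3 encodes a secreted cytokine subunit and no receptor chain, and it is counted here because the list held it. Il13ra1, the second partner of Il4ra, was below the filter, with 0.280 in B cells and 0.0892 in T cells.

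The kinases and STAT factors that act below these receptors were mostly higher in T cells under the authors' scaling. All 11 genes of the list were tested and 9 were called, 8 towards T cells and Stat2 towards B cells, with a median difference of -0.31 beside -0.09 over all genes, of which 73.0% were called and 41.6% towards T cells. Among those towards T cells were Stat5b (26.0 and 60.8, difference -1.20, SE 0.05) and Stat4 (29.2 and 54.3, -0.88, SE 0.07), and Stat2 was higher in B cells (22.5 and 12.1, 0.85, SE 0.07). With all libraries brought to equal totals, 4 were called, beside 54.6% of all genes, with Stat5b, Stat4 and Stat2 among them. Stat6, which interleukin 4 is known to activate, had 71.5 and 71.4 (adjusted p = 0.993 by limma). Jak3, which binds the common gamma chain, had 20.3 and 25.6 (difference -0.31, adjusted p = 0.00382 by limma). The Jak3 difference was -0.20 (adjusted p = 0.0452 by limma) under median-ratio scaling and 0.06 with equal totals.

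All 7 tested inhibitors of the SOCS family, which dampen cytokine signals and are induced by them, were called, beside 73.0% of all genes, 4 higher in T cells and 3 higher in B cells. Of these, Cish passed the filter through the T cells alone. Socs6 was 10.2 and 11.95 (-0.22, adjusted p = 0.00597 by limma), a difference that turned to 0.13 with equal totals. Socs3, known to bind gp130, had means of 5.64 ± 1.62 (B cells) and 46.7 ± 16.5 (T cells, SD, n = 6 each) and a difference of -2.82 (SE 0.19, adjusted p = 1.8e-08 by limma). Socs1 was 3.08 and 12.4 (-1.71, SE 0.10) and Cish 0.148 and 2.14 (-1.41, SE 0.15). Socs5 was 13.1 and 4.93 (1.26, SE 0.10), Socs4 20.03 and 15.3 (0.39, SE 0.11) and Socs7 8.17 and 6.10 (0.37, SE 0.06). Of 16 ligands of the members, 1 passed the filter, Osm, a gp130 cytokine with means of 3.15 ± 0.221 (B cells) and 10.1 ± 1.03 (T cells, SD, n = 6 each) and a difference of -1.42 (SE 0.07, adjusted p = 7.7e-10 by limma). The other 15, among them Il7, Il4, Il6 and Il21, were below it.

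Sex was compared next. None of the 10 members was called by limma in B cells, where 0.144% of all genes were, in T cells, where 0.104% were, or for the difference between the sex effects, where 0.00% were. None had an unadjusted p under 0.05 in any of these 3 tests by limma, beside 373, 319 and 295 of all genes. In the T cells, libraries of equal number were correlated in these data, although the labels do not call them pairs. A limma fit with the number as a block gave 3 members an unadjusted p under 0.05, beside 6.10% of all genes, and called none (smallest adjusted p = 0.778). Il4ra (-0.16, SE 0.05) and Il21r (-0.13, SE 0.05) were lower in the female library of 3 of 3 equal-numbered pairs, and Il10ra (0.20, SE 0.07) was higher in 3 of 3. The signs also matched in 3 of 3 for Il6ra (-0.012, SE 0.037, lower in females) and Il2rg (0.106, SE 0.052, higher in females). They did not match for Il7r, Il2rb, Il6st, Ifngr1 and Ifnar1. The share of all genes with matching signs was not computed, so these matches are not shown to be particular to the members. Il2rg, which lies on the X chromosome, had means of 136.3 ± 16.9 in the B cells of females and 133.8 ± 7.61 in those of males (SD, n = 3 each). In T cells it was 186.9, 197.0 and 179.5 in females and 174.5, 171.8 and 176.7 in males. The 3 female T cell libraries lay above the 3 male ones, by a difference of 0.11 (95% interval -0.09 to 0.31, adjusted p = 1 by limma). Il2rg was the single member without overlap between the sexes in T cells, beside 8.49% of all genes, and no member was without overlap in B cells, beside 7.20%. The 95% interval of the sex difference was widest among the members for Il2rb, at -0.91 to 1.14 in B cells and -0.86 to 1.20 in T cells.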

How the data were processed

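RNA was measured in 12 libraries of splenic B and T cells, and each sample was grouped by its title and cell type label. The labels describe libraries freed of ribosomal RNA with strand-specific preparation, and list Trim Galore, FastQC, STAR and mm10 without versions. The quantifier, the adjustment and the level of the bounds are not given in the sources used here. The deposited signal, named adjusted TPM, comes as a point estimate with a lower and an upper bound for 41128 genes. Totals run from 561020 to 1453940 per library, no counts are given and depth is unknown. Some labels call the material genomic DNA, while the protocol describes RNA.

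The 12520 genes that reached an adjusted TPM of 1 in 3 or more libraries entered limma 3.58.1 (R 4.3.3) on the log2(adjusted TPM + 1) scale. The model held the 4 group means, variances were moderated along a mean-variance trend, and p-values were adjusted by Benjamini-Hochberg. The fit was tested on simulated data with independent noise for each gene and library. That setting leaves out the correlation between T cell libraries of equal number given below. Ratios of partner chains were tested with exact permutation tests in scipy 1.17.1 (Python 3.11.15, numpy 2.4.6, pandas 2.3.3), and plots drawn with matplotlib 3.10.9. Coordinates come from GENCODE M21 on GRCm38. Deviations of the T cell samples from their group means correlated at 0.721, 0.548 and 0.521 for equal numbers, and those of the B cell samples at -0.169, -0.0382 and -0.337. The main fit treated the T cell samples as unpaired. On this ground an alternative fit took the number as a block, a pairing that the labels do not state.

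The members and gene lists were chosen with earlier results of these data known. Genes were named by rule: all members, their partner chains, the 3 largest called changes per list and direction, and the 3 genes most like Il7r, Il6st, Il10ra and Il21r. A gene that this rule names is not reported here. Genes of the libraries numbered 6, and those a count of 5 or fewer refers to, were named after their values were seen. Alternatives changed the scaling, pseudocount, filter, trend, minimum fold change, block and libraries.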

Additional observations from a re-analysis of the deposited data

Results flagged for a closer look

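In each cell type the level of every member was checked for a library far from the other 5, which made 20 groups, and 2 stood out. Chance flags about 1 in 20 groups. Il2rb was 0.94 in female B cell library 3, with the next highest B cell library at 0.494, a gap of 0.662 of the range where 0.625 is the limit. The same library had the highest Il7r of the B cells (0.828) and the highest summed level of the 5 NK cell markers among B cells (1.48, the other 5 between 0.367 and 1.05). All 5 NK cell markers were under 1 in every B cell library. In this one Ncr1 was 0.584, Gzma 0.589 and Eomes 0.0564, the highest of the B cells, while Klrb1c (0.204) and Gzmb (0.0433) were higher in others. The sum of the 2 neutrophil markers was also highest in this library, at 2.15 beside 0.268 to 0.950. Their part in the Il2rb level was not tested. Ifnar1 was 62.4 in female T cell library 6, with the next highest T cell library, male library 6, at 56.9, a gap of 0.671 of the range.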

How the results depend on the processing

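No sex difference or difference between sex effects was called for a member in any alternative, the fits with the replicate number as a block included (0 members called, in B cells, in T cells and over all libraries). In the T cell libraries alone, the block, which treats equal numbers as pairs, moved the genes called from 10 to 5 of all genes. The members with an unadjusted p under 0.05 by limma moved from 0 to 3 (Il4ra, Il21r and Il10ra). With the block, the smallest adjusted p of a member by limma was 0.778. For B against T cells, 7 to 8 members were called when each library was left out in turn, and 5 with a minimum log2 difference of 1. With all libraries brought to equal totals, 4 JAK and STAT genes were called, and Ifngr1 and Ifnar1 turned to 0.168 and 0.138. Without the filter, 24 other genes of the receptor list (17 higher in B cells) and 13 ligands (8 higher in B cells) were called at levels of little precision. Il4ra turned to -0.0227 without both T cell libraries numbered 6, an alternative added after the data were seen. The log2 ratio of Ifnar1 to Ifnar2 was 0.271 with the bounds set to bring the groups together, 0.00209 without both libraries numbered 6 and between -0.0656 and 0.00413 when each library was left out, the highest without female T cell library 6. Ifngr1 lost its call without female B cell library 1 (-0.176, adjusted p = 0.0612), female T cell library 6 (-0.161, 0.0563) or male T cell library 6 (-0.162, 0.0584). Il7r, Il2rb, Il6ra, Il6st and Il10ra kept their direction and call in all alternatives run. The causes of these changes were not tested.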
